A study of Mus musculus with 16 samples.

Results

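The genes described are 10 enzymes and subunits that make or remove reactive oxygen species in the gut epithelium. They are the NADPH oxidase 1 complex (Nox1, Noxo1, Noxa1 and Cyba), dual oxidase 2 with its maturation factor (Duox2 and Duoxa2), and the antioxidant enzymes Gpx1, Gpx2, Sod1 and Cat. They were chosen by name, with earlier results of these data known, and are 10 of the 45513 genes in the deposited count tables. All 10 had at least 238 counts in every library and passed the filter on low counts. RNA was sequenced from EpCAM+ epithelial cells sorted from crypt-enriched fractions of the colon. The 8 mice were Atoh1(WT)CreERT2; Rosa26tdTom/+, and each mouse gave a tdTom+ and a tdTom- library. The study used adult mice of both sexes, and every mouse had received 1 mg of tamoxifen daily for 3 days. In all of them CreERT2 follows the Atoh1 coding sequence at its own locus. Cells that expressed Atoh1, the transcription factor of the secretory lineage, at the time of tamoxifen can therefore carry the tdTom reporter, as can their descendants. The tdTom- cells are the sorted EpCAM+ cells without the reporter. The groups are thus mixtures of cell types, and in such bulk samples a smaller number of expressing cells and less RNA per cell cannot be told apart.

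NADPH oxidases move electrons from NADPH across a membrane to oxygen and so make superoxide or hydrogen peroxide. NOX1 is the main NADPH oxidase of the colon epithelium and needs the membrane partner p22phox, encoded by Cyba, the organizer NOXO1, the activator NOXA1 and the GTPase RAC1. DUOX2 releases hydrogen peroxide at the apical surface, and it leaves the endoplasmic reticulum only with DUOXA2. Superoxide dismutases turn superoxide into hydrogen peroxide, which catalase and the glutathione peroxidases remove.

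The populations were checked against marker genes of their cell types. All 8 goblet and secretory markers and all 4 deep crypt secretory markers were higher in tdTom+ cells, with medians of 4.01 and 2.98 on the log2 scale, and Atoh1 itself was higher by 4.54. All 8 absorptive markers were lower, with a median of -4.55, as were all 4 enteroendocrine markers, with a median of -1.71, and all 4 stem cell markers, with a median of -0.55. Of the 4 tuft cell and the 4 cycling markers 2 each were lower, or 3 tuft cell and 4 cycling markers when the mouse entered as a block. Total counts ran from 16482530 to 24218367 in tdTom+ libraries and from 18318172 to 45791503 in tdTom- libraries, where mouse 4 had the largest library and the others had at most 20668605. Mitochondrial genes took 2.23% to 6.92% of the counts in the former and 3.74% to 9.97% in the latter. Of 15841 genes tested, 25.5% were higher and 25.5% were lower in tdTom+ cells at a Benjamini-Hochberg adjusted p under 0.01 in edgeR's quasi-likelihood test. The median log2 fold change of all genes tested was 0.0039.

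Against that background of 25.5% lower and 25.5% higher, 6 of the 10 genes were lower in tdTom+ cells and 0 were higher. These counts come from the fit without a mouse term. The 10 genes were chosen with earlier results of these data known, so their share beside the background is a description and no test. The median log2 fold change of the 10 was -0.56. The genes that fell were Nox1, Noxa1, Cyba, Duoxa2, Sod1 and Cat. The genes that did not pass the test were Noxo1, Duox2, Gpx1 and Gpx2. At an unadjusted p of 0.05 in the same edgeR test 1 gene, Gpx1, was higher, and a fit that took the mouse as a block called it higher too, beside 6 lower, where 28.4% of all genes were higher and 28.9% lower, while DESeq2 and limma-voom called 0 of the 10 higher. For 3 of the 10, Duoxa2, Sod1 and Cat, the 8 tdTom+ values lay wholly below the 8 tdTom- values, a separation that 15.3% of all genes tested showed in this direction. By their titles the mice form 3 series, numbered here 1 to 3, 4 and 5 to 8, and the labels do not say whether these are batches. Duoxa2, Noxa1, Sod1 and Cat were called lower both within mice 1 to 3 and within mice 5 to 8, and mouse 4 alone allows no test. Values below are CPM, that is counts scaled by TMM to 1e6 per library, unless another unit is named, and they are given as mean ± SD over the 8 mice.

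**Figure D1:**
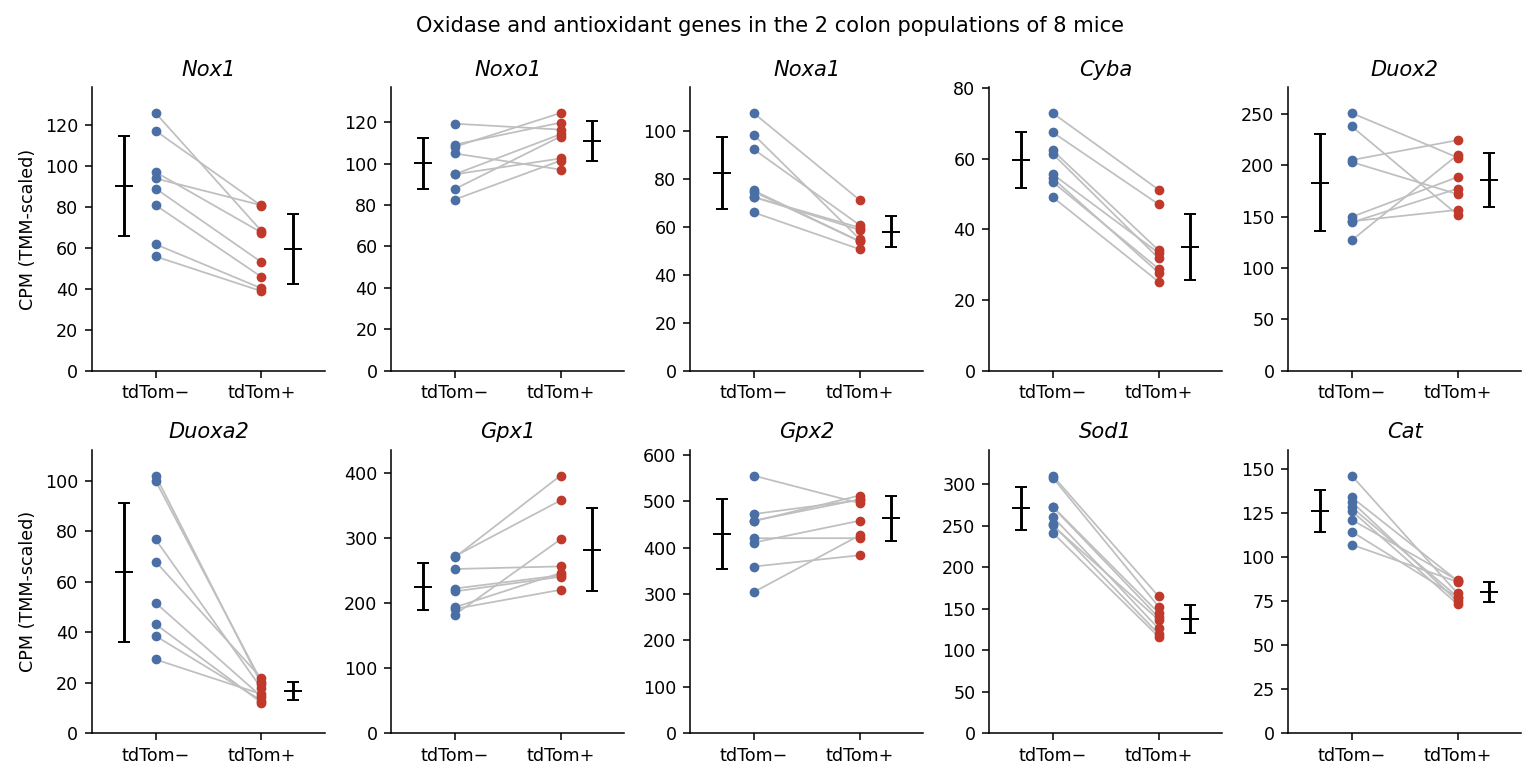
CPM of each gene in the tdTom- (blue) and tdTom+ (red) cells of the 8 mice, with a grey line joining the libraries of a mouse and black bars for the mean ± SD. Each axis starts at 0. The colours separate fully for Duoxa2, Sod1 and Cat, while the lines of Duox2 cross.

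Duoxa2 (ENSMUSG00000027225), the maturation factor of DUOX2, showed the largest difference of the 10. It ranged from 12.2 to 21.7 CPM (median 16.6) among the tdTom+ libraries and from 29.2 to 102 CPM (median 59.8) among the tdTom- libraries. The tdTom+ libraries were all low, whereas the tdTom- libraries spread widely from mouse 4 at the bottom to mice 3 and 7 at the top. The mean was 16.8 ± 3.57 CPM (SD, n = 8) against 63.7 ± 27.7 CPM (SD, n = 8), a 3.79-fold lower level. The log2 fold change was -1.92 with a standard error of 0.23 and an edgeR adjusted p of 2.97e-07, and Duoxa2 was lower in 8 of 8 mice. The absorptive markers moved the same way, with a summed level of 663 to 746 CPM in tdTom+ and 3353 to 5985 CPM in tdTom- libraries. The enteroendocrine markers summed to 171 to 494 CPM and 1126 to 3120 CPM. The part of either cell type in the Duoxa2 result was not tested.

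Duox2 (ENSMUSG00000068452), the oxidase that DUOXA2 serves, did not pass the test. It ranged from 152 to 225 CPM (median 183) among the tdTom+ libraries and from 127 to 251 CPM (median 177) among the tdTom- libraries. The ranges overlapped almost entirely, and Duox2 was higher in tdTom+ cells in 5 mice and lower in mice 2, 3 and 7. The differences of single mice ran from -0.65 in mouse 3 to 0.73 in mouse 4 on the log2 scale. The fitted log2 fold change was 0.02 with a standard error of 0.13 and an edgeR adjusted p of 0.882, and its sign changed with the scaling and with the mice included.

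The pair was also compared as the ratio of their levels per length, in TPM (reads per exonic base, scaled to the same sum in every library). The test of this ratio was added after the data had been seen. The ratio of Duoxa2 to Duox2 was 0.367 ± 0.0845 in tdTom+ cells, against 1.34 ± 0.269 in tdTom- cells (SD, n = 8). It lay between 0.294 and 0.541 in the former and between 0.926 and 1.69 in the latter, so the groups did not overlap. The mean difference of the log2 ratio, tdTom+ minus tdTom-, was -1.88 with an SD of 0.19 over the mice, and it was negative in 8 of 8 mice. A 2-sided exact permutation test that swapped the populations within mice gave p = 0.0078 (n = 8), the smallest value it can give, and 0.016 after adjustment over the 4 ratios compared. It reuses the libraries described above for each gene and is no independent support for those differences.

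The genes of the pair varied together across the tdTom- libraries, less so across the tdTom+ libraries. The tdTom- libraries of mice 3 and 7 had the highest values of both genes and that of mouse 4 had the lowest of both, and Pearson's r of log2 CPM was 0.98 over the 8 libraries. Among the tdTom+ libraries r was 0.35, and mouse 3 had the lowest Duox2 with the second highest Duoxa2. After the population means were taken off, Duoxa2 was the second most similar of 10058 genes to Duox2, with a Pearson r of 0.85 over the 16 libraries. The gene in first place was Fam83f, with r = 0.87, and the third was Fam117a, with r = 0.78. These correlations are descriptions, since the libraries of a mouse share the animal and the sorting.

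**Figure D2:**
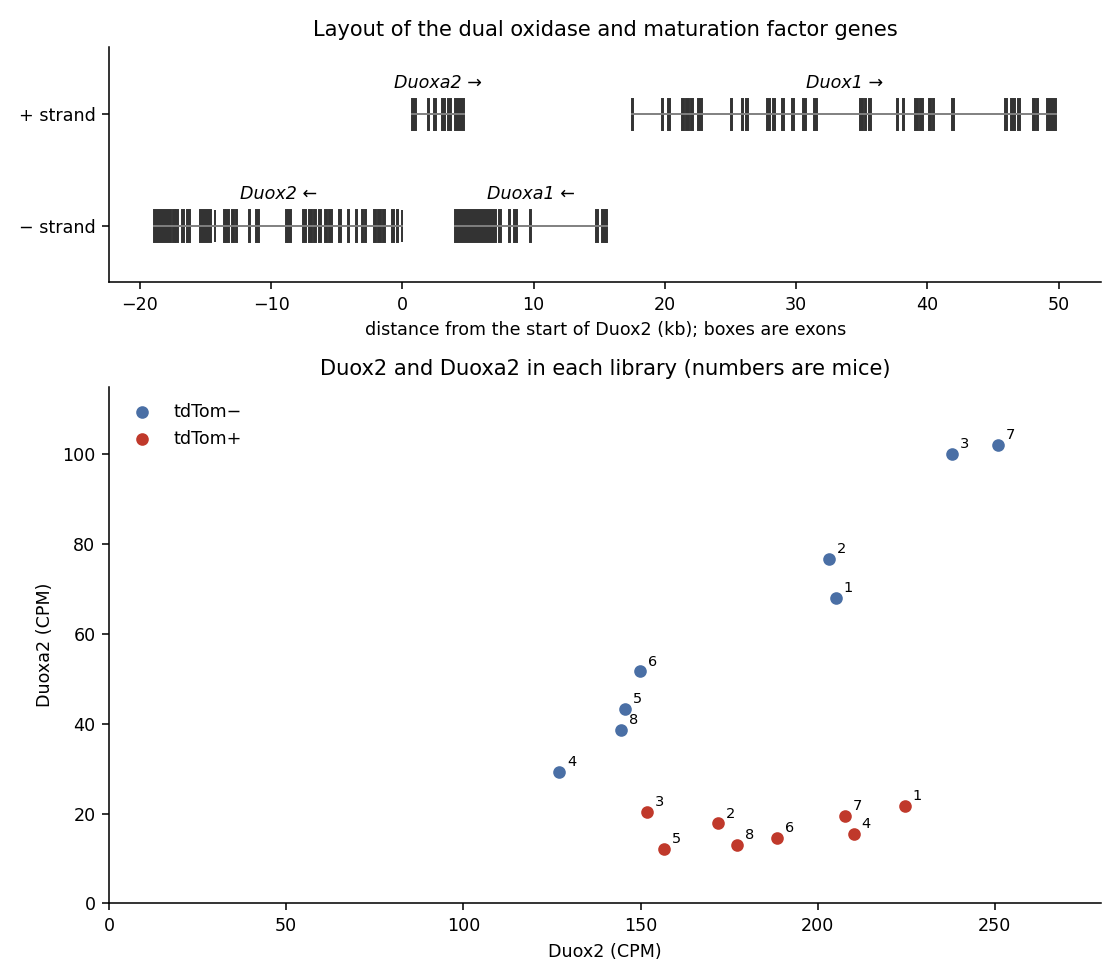
Top, exons of the 4 dual oxidase and maturation factor genes by strand, with the distance in kb from the start of Duox2. Bottom, CPM of Duoxa2 against CPM of Duox2 in each library, numbered by mouse. The tdTom+ points (red) form a low band at 12.2 to 21.7 CPM of Duoxa2, and the tdTom- points (blue) climb from 29.2 to 102 CPM as Duox2 rises.

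The genes of the pair are neighbours on chromosome 2 (GRCm38). Duox2 occupies chr2:122279247-122298165 on the minus strand and Duoxa2 chr2:122298900-122302885 on the plus strand. They point away from each other, and 734 bases lie between their starts as counted. The other dual oxidase genes, Duoxa1 and Duox1, follow on the far side of Duoxa2. Duox1 was at 5.68 ± 1.14 CPM in tdTom+ cells, against 4.40 ± 1.03 CPM in tdTom- cells (SD, n = 8), with a log2 fold change of 0.38 and an edgeR adjusted p of 0.0297. Duoxa1 had 49 counts in all 16 libraries and was not tested. Exons of Duoxa2 and Duoxa1 overlap by 682 bases on opposite strands, and the authors counted reads by strand.

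The 250 bases before the RefSeq start (GRCm38.p6) are shown for Duoxa2 and Sod1, whose RNA levels separated the populations and whose windows held a motif searched for. Duoxa2 lies at chr2:122298650-122298899 on the plus strand, with an AP-1-like match and a TATA box (TATAAA) in capitals. The AP-1-like pattern searched for was TGANTCA with any middle base, and the letters here are TGAATCA. Sod1 lies at chr16:90220512-90220761 on the plus strand, with an antioxidant response element core (TGACNNNGC, here on the minus strand) and a TATA box in capitals.
Duoxa2: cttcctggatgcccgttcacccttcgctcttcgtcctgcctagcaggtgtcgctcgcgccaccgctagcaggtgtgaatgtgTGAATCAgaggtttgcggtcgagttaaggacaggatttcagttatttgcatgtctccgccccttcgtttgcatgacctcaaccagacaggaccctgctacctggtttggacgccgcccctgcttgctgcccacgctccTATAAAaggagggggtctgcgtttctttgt
Sod1: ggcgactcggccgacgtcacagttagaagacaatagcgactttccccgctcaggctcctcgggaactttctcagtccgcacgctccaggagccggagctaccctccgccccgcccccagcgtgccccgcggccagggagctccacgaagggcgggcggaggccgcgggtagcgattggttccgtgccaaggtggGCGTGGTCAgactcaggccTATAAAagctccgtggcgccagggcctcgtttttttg
Both strands were searched for each motif, and the matches do not overlap, except that the AP-1-like letters match on both strands at 1 place. The TATA box stood 30 to 25 bases upstream of the RefSeq start in Duoxa2 and 37 to 32 in Sod1. The AP-1-like match of Duoxa2 stood 168 to 162 bases and the response element core of Sod1 56 to 48 bases upstream. Of 32851 promoter windows of the same length, 12.4% held the TATA box, 6.75% the AP-1-like pattern and 10.2% the response element core. The windows of the other 8 genes, Duox2 among them, held none of these letters. The window of Duox2 overlaps an exon of another annotated Duox2 transcript (GENCODE M21), so that it is not upstream of every start of this gene. The windows of Gpx1, Sod1 and Cat run past the start of the gene as counted, which is 90220742 in Sod1. The window of Nox1 lies inside the gene as counted. The distances above therefore hold for the RefSeq start only. GC content of the windows ran from 38.0% in Nox1 to 80.0% in Noxo1, with 52.8% in Duox2 and 56.4% in Duoxa2.

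In the NADPH oxidase 1 complex, 3 of the 4 genes were lower in tdTom+ cells, against 25.5% of all genes, and the organizer did not pass the test. Nox1 (ENSMUSG00000031257, chrX:134086421-134221956 on the minus strand), the catalytic subunit, ranged from 38.8 to 80.6 CPM (median 60.1) among the tdTom+ libraries and from 55.7 to 126 CPM (median 91.3) among the tdTom- libraries. Mice 5 and 8 were lowest in both populations, so the ranges overlapped although Nox1 was lower in the tdTom+ library of 8 of 8 mice. The mean was 59.2 ± 17.1 CPM against 90.0 ± 24.3 CPM (SD, n = 8), and the log2 fold change was -0.61 with a standard error of 0.18 and an edgeR adjusted p of 0.0058. In the fit without a mouse term the call was lost when any of 4 mice was left out. The edgeR adjusted p was 0.0187 without mouse 1, 0.0148 without mouse 2, 0.0179 without mouse 4 and 0.0135 without mouse 6, with log2 fold changes of -0.53 to -0.61. Within mice 1 to 3 the value was -0.55 (edgeR adjusted p = 0.0229) and within mice 5 to 8 it was -0.55 (edgeR adjusted p = 0.0851). When the mouse entered as a block it was -0.61 with a standard error of 0.06 (edgeR adjusted p = 1.43e-07).

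Cyba (ENSMUSG00000006519, chr8:122424772-122432940 on the minus strand), which encodes p22phox, ranged from 25.2 to 51.2 CPM (median 32.5) among the tdTom+ libraries and from 49.1 to 72.9 CPM (median 58.5) among the tdTom- libraries. The ranges met only at their edges, where the tdTom+ library of mouse 3 exceeded the tdTom- library of mouse 8. The log2 fold change was -0.77 with a standard error of 0.13 (edgeR adjusted p = 2.45e-05), lower in 8 of 8 mice, and within mice 1 to 3 it was -0.57 (edgeR adjusted p = 0.0118). Noxa1 (ENSMUSG00000036805, chr2:25085667-25095149 on the minus strand), the activator, ranged from 50.7 to 71.2 CPM (median 56.9) among the tdTom+ libraries and from 66.0 to 108 CPM (median 74.9) among the tdTom- libraries. Mouse 4 had the highest value in both populations. Noxa1 had a log2 fold change of -0.51 with a standard error of 0.10 (edgeR adjusted p = 1.10e-04), again lower in 8 of 8 mice.

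Noxo1 (ENSMUSG00000019320, chr17:24696234-24700529 on the plus strand), the organizer that brings NOXA1 to the enzyme, ranged from 97.1 to 124 CPM (median 114) among the tdTom+ libraries and from 82.6 to 119 CPM (median 99.8) among the tdTom- libraries. The ranges overlapped, and Noxo1 was higher in the tdTom+ library of 6 of 8 mice and lower in mice 1 and 4. Its fitted log2 fold change was 0.15 with a standard error of 0.07 (edgeR adjusted p = 0.0862). Of its 3013 exonic bases 2122 overlap Tbl3 on the other strand, so this value depends on the strand setting of the authors' counting.

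As the ratio of TPM, Noxo1 to Nox1 was 2.25 ± 0.811 in tdTom+ cells, against 1.32 ± 0.467 in tdTom- cells (SD, n = 8). It was higher in tdTom+ cells in all 8 mice, although the ranges overlapped at 1.40 to 3.40 and 0.889 to 2.15. The mean log2 difference was 0.76 with an SD of 0.21 (2-sided exact permutation test, n = 8, p = 0.0078, again the smallest it can give, adjusted 0.016). The ratio of Noxa1 to Nox1 was 2.14 in tdTom+ and 1.95 in tdTom- cells, with p = 0.15 in the same exact test (adjusted 0.15) and a higher ratio in 5 of 8 mice. The ratio of Cyba to Nox1 was 2.71 and 3.04, with p = 0.094 in the exact test (adjusted 0.13) and a lower ratio in 5 of 8 mice.

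**Figure D3:**
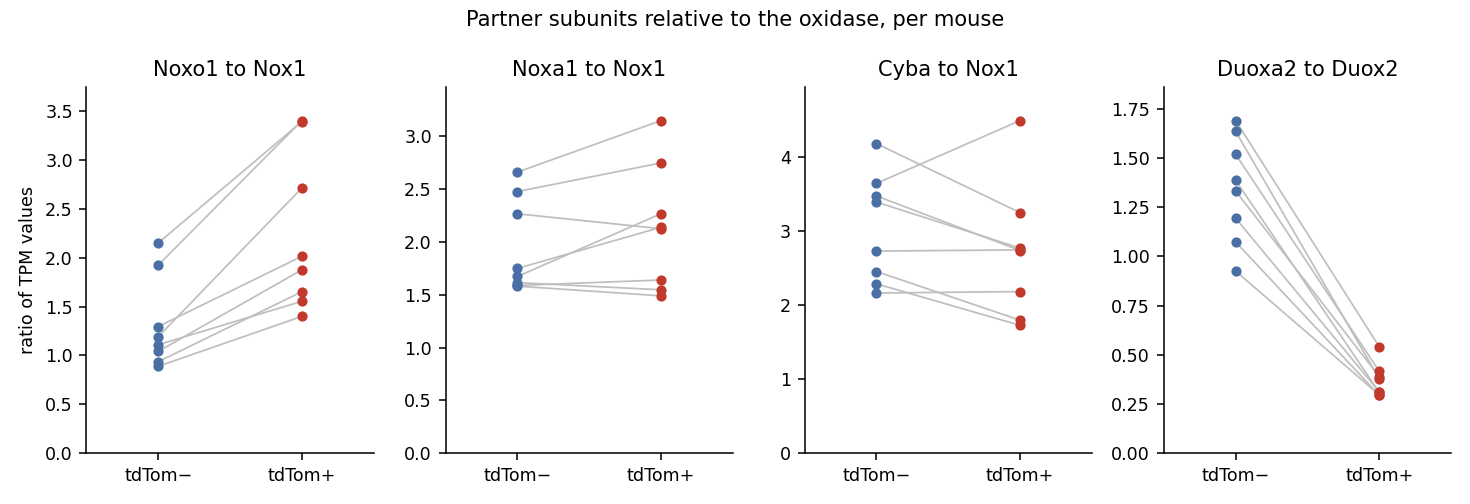
Ratio of the TPM of each partner to that of its oxidase in the 8 mice, tdTom- in blue and tdTom+ in red, with a grey line for each mouse. The Duoxa2 to Duox2 ratio drops from 0.926 to 1.69 down to 0.294 to 0.541, and every Noxo1 to Nox1 line rises.

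The genes whose values across mice were most like those of Nox1 were Clca3b (r = 0.87), Miga1 (r = 0.84) and Chid1 (r = 0.83), over 16 libraries after taking off the population means. Gpx2 stood in place 9 with r = 0.74, whereas the partners stood lower, at r = 0.54 for Noxa1, 0.39 for Cyba and -0.27 for Noxo1. These values carry no test.

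Among the 4 antioxidant enzymes, Sod1 and Cat were lower in tdTom+ cells. Sod1 (ENSMUSG00000022982, chr16:90220742-90226322 on the plus strand), the cytosolic superoxide dismutase, ranged from 116 to 165 CPM (median 138) among the tdTom+ libraries and from 242 to 311 CPM (median 267) among the tdTom- libraries. No tdTom+ library came near the lowest tdTom- library. The mean was 138 ± 16.6 CPM against 271 ± 25.9 CPM (SD, n = 8), a 1.97-fold lower level, with a log2 fold change of -0.98, a standard error of 0.08 and an edgeR adjusted p of 6.15e-10. The differences of single mice ran only from -1.07 to -0.87 on the log2 scale.

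Cat (ENSMUSG00000027187, chr2:103453849-103485160 on the minus strand), the peroxisomal catalase, ranged from 73.3 to 86.9 CPM (median 78.4) among the tdTom+ libraries and from 107 to 146 CPM (median 127) among the tdTom- libraries. The populations were separate, and the tdTom+ values varied least of the 10 genes, with a coefficient of variation of 6.88%. The log2 fold change was -0.65 with a standard error of 0.06 (edgeR adjusted p = 1.08e-08), lower in 8 of 8 mice.

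Neither glutathione peroxidase was called lower. Gpx1 (ENSMUSG00000063856, chr9:108338903-108340343 on the plus strand), the widely expressed cytosolic form, ranged from 220 to 396 CPM (median 251) among the tdTom+ libraries and from 182 to 272 CPM (median 220) among the tdTom- libraries. The ranges overlapped, but Gpx1 was higher in the tdTom+ library of 8 of 8 mice, most of all in mouse 1 at 298 against 182 CPM and least in mouse 6 at 256 against 252 CPM. The log2 fold change was 0.33 with a standard error of 0.12 and an edgeR adjusted p of 0.0254, which missed the threshold. When the mouse entered as a block it was 0.31 with a standard error of 0.07 and an edgeR adjusted p of 6.27e-04, which passed. Within mice 1 to 3 it was 0.54 (edgeR adjusted p = 0.0226) and within mice 5 to 8 it was 0.15 (edgeR adjusted p = 0.101), and the difference between these series was not tested.

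Gpx2 (ENSMUSG00000042808, chr12:76792335-76795554 on the minus strand), the gastrointestinal form, was the most highly counted of the 10 genes. It ranged from 384 to 512 CPM (median 477) among the tdTom+ libraries and from 304 to 555 CPM (median 439) among the tdTom- libraries. The tdTom+ range lay inside the tdTom- range, and the tdTom- extremes were mouse 2 at the bottom and mouse 4 at the top. The log2 fold change was 0.11 with a standard error of 0.10 (edgeR adjusted p = 0.364), and Gpx2 was higher in the tdTom+ library of 6 of 8 mice. Reads of Gpx2 and of its pseudogene Gpx2-ps1 on chromosome 7 could be divided in the authors' counting. The pseudogene was at 51.2 CPM in tdTom+ cells, against 47.5 CPM in tdTom- cells, and it was the gene most like Gpx2 across libraries (r = 0.94), ahead of Cct7 and Eif2d (both r = 0.86).

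Levels of different genes can be compared only per length. In tdTom+ cells Gpx2 was highest, at a mean of 882 TPM, followed by Sod1 at 432 and Gpx1 at 391 TPM. Gpx2 was above Sod1 in 8 of 8 mice, but Sod1 was above Gpx1 in only 6. In tdTom- cells Sod1 at 896 TPM and Gpx2 at 873 TPM were not in a fixed order, with Sod1 higher in 4 of 8 mice, and Gpx1 followed at 331 TPM. Reads counted for Gpx2-ps1, at 47.5 CPM in tdTom- cells, are not in the Gpx2 value, so the order of Sod1 and Gpx2 depends on that counting. Cyba came next in both populations, at 91.9 TPM in tdTom+ and 167 TPM in tdTom- cells, below Gpx1 in every mouse. In tdTom+ cells Noxo1 (75.5 TPM), Noxa1 (73.6), Cat (62.8) and Duox2 (59.5) followed, with Noxa1 above Cat in 8 of 8 mice and the other neighbours in this order in 5 or 6, then Nox1 at 36.1 and Duoxa2 at 21.2 TPM. In tdTom- cells the order was Noxa1 (111 TPM), Cat (103), Duoxa2 (83.2), Noxo1 (71.9), Duox2 (60.3) and Nox1 (58.8), and each was above the next in only 5 or 6 of 8 mice. Nox1 was above Duoxa2 in 8 of 8 mice in tdTom+ cells.

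**Figure D4:**
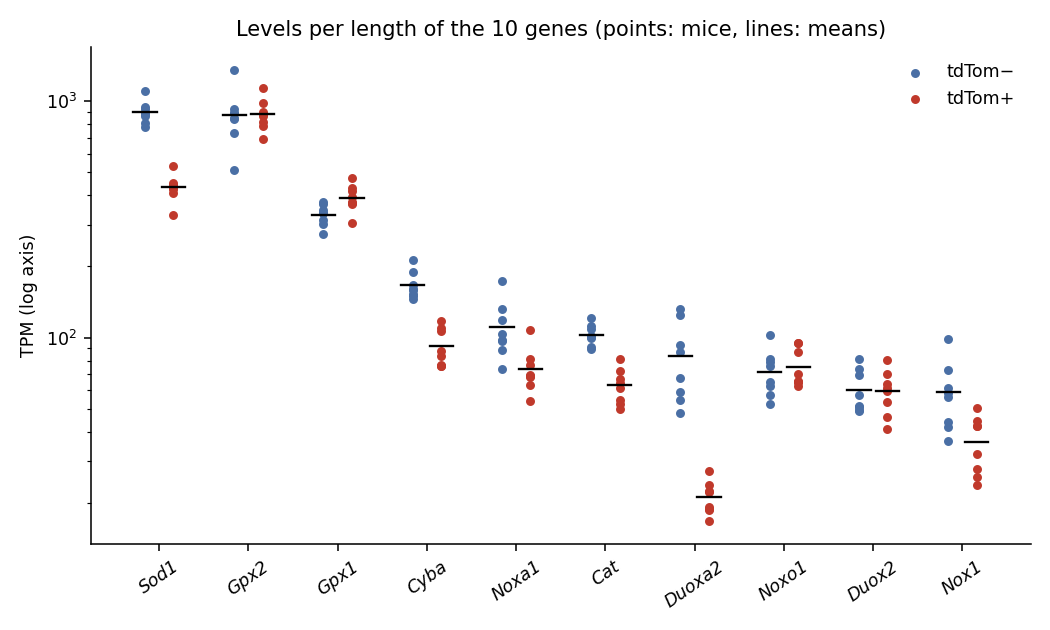
TPM of the 10 genes on a log axis in the tdTom- (blue) and tdTom+ (red) cells, with a point for each of the 8 mice and a line at the mean, ordered by the tdTom- mean. Sod1 stands beside Gpx2 in tdTom- cells and below it in tdTom+ cells, and Duoxa2 is lowest in tdTom+ cells at a mean of 21.2 TPM.

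The remaining genes of these pathways were read from 8 lists of related genes. Of 57 genes 48 were tested, 7 were higher and 28 lower in tdTom+ cells and 13 were not called. The background was 25.5% in each direction, also for the counts of each list below. The median log2 fold change of the tested genes was -0.36. The lists were chosen with earlier results of these data known, so these counts are descriptions and no test. Of the 11 other NADPH oxidase and dual oxidase genes described 5 were tested. Cybc1, a chaperone of the gp91phox and p22phox pair, rose by 0.31 on the log2 scale. Rac2 fell by 2.25 and Rac3 by 0.97. The call of Cybc1 was lost within mice 5 to 8, at 0.21, and that of Rac3 within mice 1 to 3, at -0.73. Rac1, the GTPase that NOX1 uses, was at 376 ± 11.2 CPM in tdTom+ cells, against 390 ± 18.2 CPM in tdTom- cells (SD, n = 8, edgeR adjusted p = 0.35). Nox3 had 0 counts in all 16 libraries, which allows up to 0.182 CPM in a library by counting error alone. Nox4, Cybb, Ncf1, Ncf4 and Duoxa1 had too few counts to test.

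Cybb, Rac2 and Cyba also serve the oxidase of phagocytes. Rac2 was at 1.74 ± 0.426 against 8.36 ± 1.28 CPM (SD, n = 8), and Cybb was at 0.0134 CPM in tdTom+ cells, against 0.466 CPM in tdTom- cells. Cybb had 81 counts in all and was not tested. Of the 10 leukocyte markers 3 were tested. Ptprc and Cd68 fell, although Cd68 lost its call within mice 1 to 3 and within mice 5 to 8, and the phagocyte marker Itgam was at 5.23 against 5.59 CPM (edgeR adjusted p = 0.594). Another phagocyte marker, Csf1r, had too few counts to test, at 0.0585 against 0.591 CPM, and was lower in 8 of 8 mice. So were Ncf1 (0.0266 against 0.367 CPM) and Ncf4 (0.0982 against 0.316 CPM), also untested. Mpo was higher in 4 mice and lower in 2, and Epx was higher in 4 and lower in 4. The summed level of the list was 6.49 to 10.7 CPM in tdTom+ and 10.9 to 19.0 CPM in tdTom- libraries. Ptprc was at 2.17 against 6.23 CPM, whereas S100a8 had 5, Mpo 12 and Cd79a 15 counts over all libraries. Of the 6 stromal and endothelial markers 2 were tested, Pecam1 and Acta2, and both fell, with sums of 3.65 to 5.59 and 6.02 to 8.26 CPM. The call of Acta2 was lost within both series and without mouse 3, 5 or 7. The cells had been sorted live for EpCAM, an epithelial surface protein. The part of leukocytes and stromal cells in the Cyba and Rac2 results was not tested.

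The superoxide dismutase list fell throughout, with Sod3, the extracellular form, at -2.83 from no more than 1.24 CPM in any library, Ccs, the copper chaperone of SOD1, at -0.77 and Sod2, the mitochondrial form, at -0.19. Of the other glutathione peroxidases Gpx7 of the endoplasmic reticulum rose by 1.12, Gpx3 fell by 1.35 and Gpx4, which reduces lipid peroxides, fell by 0.62. Gpx3 was at -2.21 within mice 1 to 3 and at -0.79 within mice 5 to 8 (edgeR adjusted p = 0.0308), where its call was lost. Within mice 1 to 3 the edgeR adjusted p was 0.0166 for Gpx7 and 0.0229 for Gpx4, so these calls were lost there. Gpx5 and Gpx6 had 0 counts and Gpx8 too few to test. Of the 7 genes listed under selenoprotein synthesis, which Gpx1 and Gpx2 need, 3 fell and 0 rose, against 25.5% of all genes in each direction. Among the 3 is Selenop, a secreted selenium carrier rather than a factor of the synthesis, which fell by 2.08 on the log2 scale. Sepsecs fell by 0.35, with its call lost within mice 1 to 3.

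In the peroxiredoxin and thioredoxin list 7 of 13 genes fell and 2 rose, against 25.5% of all genes in each direction. Prdx6, a peroxiredoxin that uses glutathione, was at 193 to 294 CPM in tdTom+ and 1207 to 2421 CPM in tdTom- cells. The ranges lay far apart, and its log2 fold change of -2.96 with a standard error of 0.13 (edgeR adjusted p = 1.07e-13) exceeded in size that of any of the 10 genes. Srxn1, which repairs oxidized peroxiredoxins, fell by 2.01. Txnrd3 rose by 0.40 and Prdx4, the peroxiredoxin of the endoplasmic reticulum, by 0.39, and Txnrd3 lost its call within mice 1 to 3. Prdx1, Prdx2, Prdx3 and Txn1 were not called.

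Of the 7 genes of glutathione synthesis and recycling 5 fell, led by Gss at -1.38 and Gclc at -1.15, which carry out both steps of glutathione synthesis. Slc7a11, the cystine importer, rose by 1.63 (10.3 ± 2.79 against 3.33 ± 1.09 CPM, SD, n = 8) and Glrx2 by 0.30. The call of Glrx2 was lost in both series, with an edgeR adjusted p of 0.0334 within mice 1 to 3 and 0.0323 within mice 5 to 8. Of the 5 genes of the Nrf2 pathway Nfe2l2, which encodes NRF2, fell by 0.88 and its target Nqo1 by 1.92, and Keap1, Hmox1 and Bach1 were not called. Of the 5 enzymes that supply NADPH Me1 fell by 1.81 and G6pdx by 0.68, 4 fell in all, and Idh2 rose by 0.30, a call lost within mice 1 to 3 and with scaling by total counts.

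**Figure D5:**
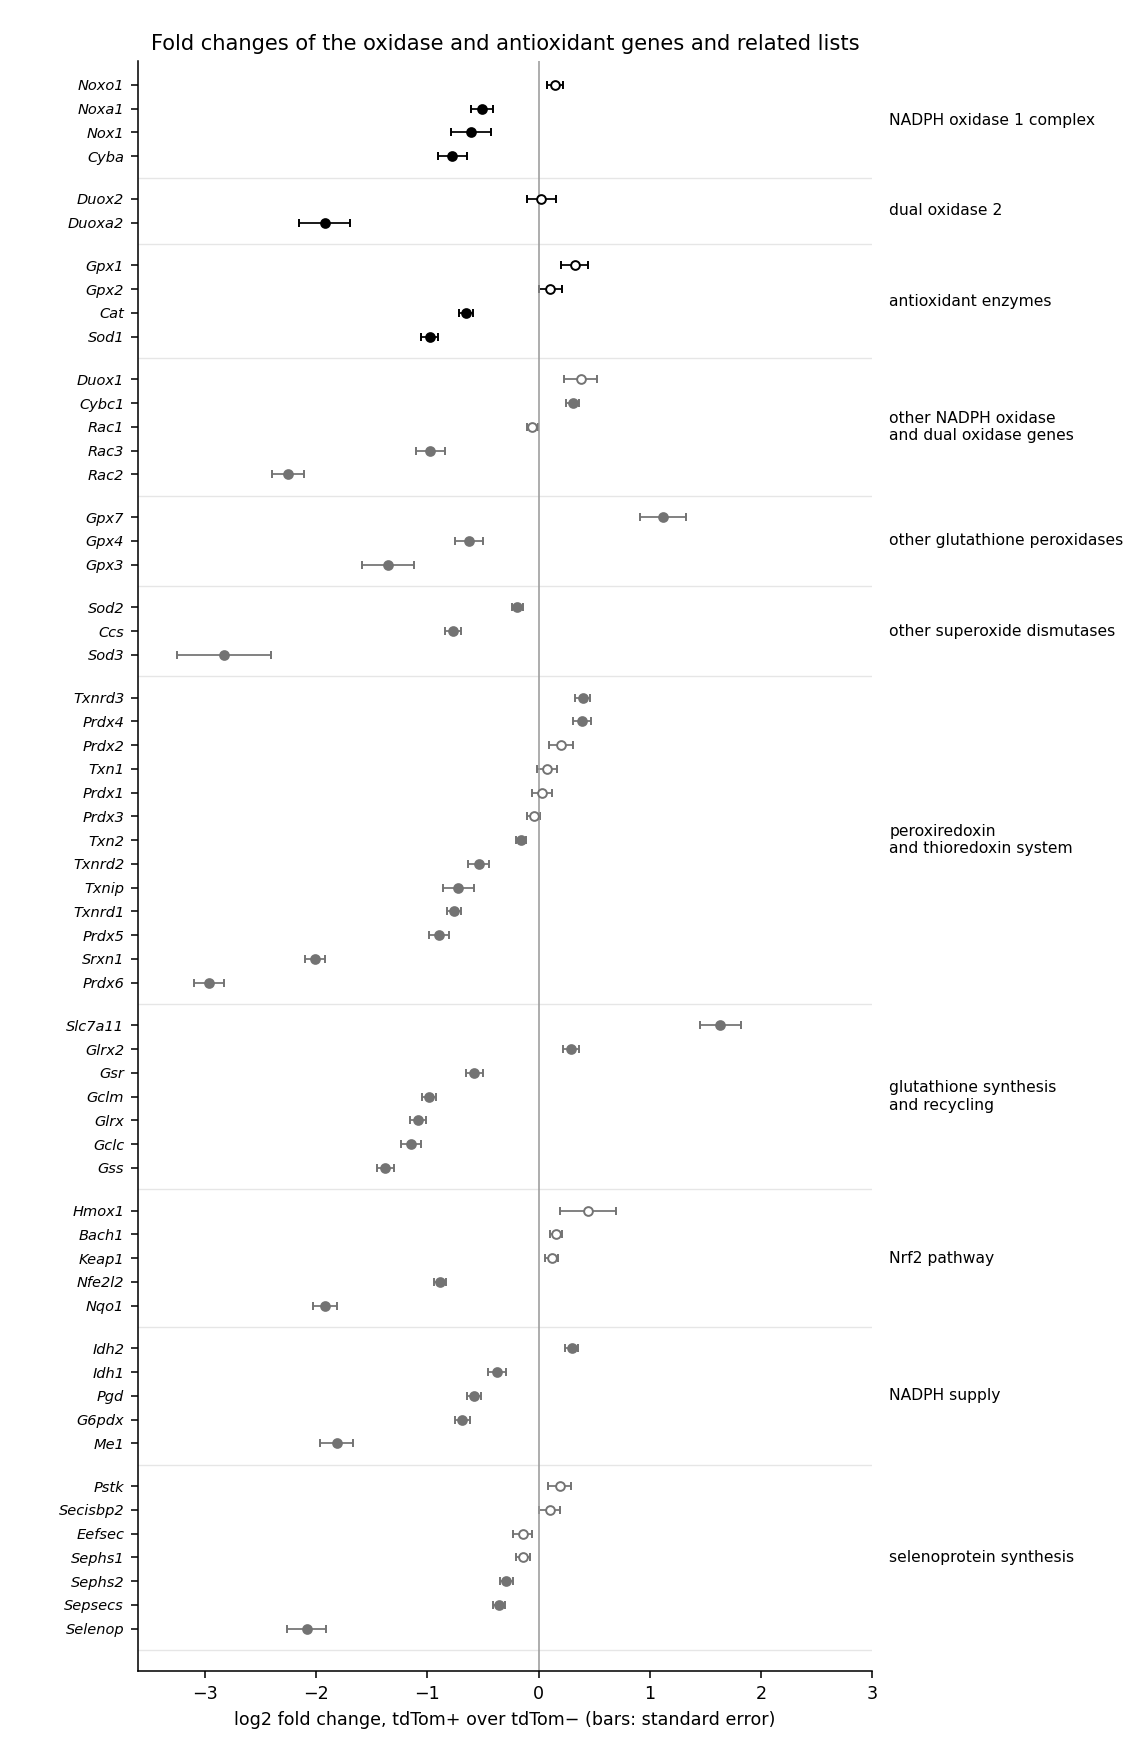
Log2 fold change of tdTom+ over tdTom- cells with its standard error for the 10 genes (black) and for the tested genes of the 8 related lists (grey), n = 8 mice. The standard errors were derived from the F statistic of the edgeR test. Filled points passed an edgeR adjusted p of 0.01 and open points did not. Most filled points lie left of 0, with Prdx6 at -2.96 farthest left and Slc7a11 at 1.63 farthest right.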

How the data were processed

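The 16 libraries were stranded mRNA libraries of sorted colon cells, 8 tdTom+ and 8 tdTom-, grouped by the sample labels and paired by the mouse number in their titles, since both libraries of a number come from 1 animal. Per the labels, the authors aligned reads with TopHat2 2.1.1 to GRCm38. They deposited whole-number counts per gene from featureCounts, taken from exons on the reverse strand without normalization. Neither the annotation release nor how reads of near-identical genes were shared is given in the sources used here. Symbols came from GENCODE M21 for 44585 of 45513 genes, and promoter sequences from RefSeq (GRCm38.p6) for 10 of 10 genes. The small intestinal samples and the 9S/T-A mice were not analysed here.

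Differences were tested by the quasi-likelihood method of edgeR 4.0.16 under R 4.3.3 (genes kept by filterByExpr, TMM scaling, no mouse term, Benjamini-Hochberg adjusted p under 0.01 over 15841 genes). Standard errors of edgeR fold changes were derived as the size of the log2 fold change divided by the square root of the test's F statistic. They are therefore not independent of the p-values beside them. TPM used the exonic length in the count tables. Ratios of partners were compared with an exact permutation test that was added after the data had been seen. Likeness of genes was Pearson's r of log2 CPM (prior count 2) over 16 libraries after taking off the population means, among genes with a mean of at least 10 CPM. The pairing was checked on deviations from the population means, where libraries of 1 mouse correlated at 0.223 to 0.408 and libraries of different mice at 0.168 or less. The main fit, the fits with a mouse left out and those within a series did not use the pairing. Alternatives were the mouse as a block, DESeq2 1.42.0, limma-voom (limma 3.58.1), other scalings and filters, each mouse left out, mice 1 to 3 or 5 to 8 only, and an adjusted p of 0.05. The fits were tested on simulated data.

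A floor of 3 counts was 0.124 to 0.182 CPM in tdTom+ and 0.0655 to 0.164 CPM in tdTom- libraries and covers counting error only. No libraries of a population agreed within sampling noise. The 10 genes and the lists were chosen with earlier results of these data known. All 10 are described. From every other list the text names up to 2 genes with the largest change in each direction among those called and the genes with too few counts, and Rac1, Sod2, Duox1 and genes that were not called are named for their roles. Of the lists, 1 gene is not reported here.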

Additional observations from a re-analysis of the deposited data

Results flagged for a closer look

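Among the 32 groups of 8 values compared, for each gene and for the library measures, 1 value lay far from the rest, where chance gives about 1 in 20. The tdTom- library of mouse 4 held 45791503 counts, and the other 7 tdTom- libraries held 18318172 to 20668605. Without mouse 4 the log2 fold change of Duox2 was -0.05, and Duoxa2 was still lower (edgeR adjusted p = 1.58e-07).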

How the results depend on the processing

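Of 190 values of the 10 genes under 19 alternatives, 176 changed neither direction nor call. The calls of Duoxa2, Noxa1, Sod1 and Cat held under all 19 alternatives. With the mouse as a replicate block 1 of the 10 genes was higher (Gpx1) and 6 were lower, and the block changed no other call among them. At an adjusted p of 0.05, 1 was higher as well. Leaving out 1 mouse gave 0 higher and 5 to 6 lower, with Nox1 the call lost. Duox2 turned to -0.015 with total counts, -0.046 without mouse 4, -0.01 without mouse 6, -0.0043 without mouse 8 and -0.23 in mice 1 to 3, and with 1 mouse left out it ran from -0.046 to 0.12. Its call did not pass in any of these, and the cause was not tested. In mice 1 to 3 alone, where fewer samples entered, 2546 genes were higher and 2559 lower, and Nox1 and Cyba were lost among the 10. Leaving out 1 mouse gave 3670 to 4177 higher and 3700 to 3914 lower. Of 777 values of 41 other genes 748 kept direction and call and 29 kept only direction. These genes had the largest called changes in the related and marker lists, and not all of them are named above. Genes of a few counts, such as Sod3, Gpx3 and Cybb, have wide counting errors at this depth.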
